A study of Mus musculus with 25 samples.

Results

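The 10 genes described here encode elongation factors of RNA polymerase II: Cdk9, Ccnt1 and Ccnt2 of P-TEFb, the factors Ell and Ell2, and Paf1, Ctr9, Leo1, Cdc73 and Rtf1 of the PAF complex. They were chosen by gene name, as factors that work with the DOT1L and AFF complexes. The rule uses no measured value, but it was written with earlier results of these data known. All 10 were present among the 35731 genes of the RNA table of mouse embryonic stem cells (mESCs) and among the 24062 genes of the RNA table of 8-cell embryos, and all 10 passed the filter on low counts in both. The mESCs carry the strain label v6.5 and were wild type (WT, 3 RNA libraries) or Dot1L knockout (KO, 2 RNA libraries), with no treatment. Dot1L is the methyltransferase that acts on lysine 79 of histone H3. The embryos were wild type, of the cross B6D2F1 x Cast/EiJ, and had received the solvent DMSO (2 libraries) or the Dot1L inhibitor SGC0946 (2 libraries). Each embryo library was a pool of 30 to 35 embryos at 56 hours after fertilization. Peaks of lysine 79 with 2 methyl groups (H3K79me2) or 3 (H3K79me3) were listed for 2 WT and 2 KO libraries per mark, in mESCs only. How the knockout was made, how many clones it stands for, and the dose and length of SGC0946 treatment are not given in the sources used here. Nothing in the labels says that replicates came from separate cultures or litters, so p-values measure the spread between these samples, which may be technical.

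After initiation, RNA polymerase II pauses shortly downstream of the start site, held by the factors DSIF and NELF. P-TEFb, a pair of the kinase CDK9 and a T-type cyclin, phosphorylates the polymerase and the pausing factors and so releases it into the gene body. ELL proteins raise the rate of elongation and join P-TEFb and an AFF scaffold in the super elongation complex. The PAF complex travels with the polymerase and is needed for ubiquitination of histone H2B, a mark that stimulates DOT1L. H3K79 methylation is found over the first part of transcribed gene bodies.

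The promoters of 5 of the 10 genes are printed because the results below turn on these genes. Cdk9, Ccnt1 and Ccnt2 were the members with both marks in both WT libraries, Paf1 had the largest RNA difference among the members in KO mESCs, and Ell2 was the only member called lower there. Each sequence is the RefSeq entry of build GRCm38.p6, from 250 bases before to 50 bases after the start site, 5′ to 3′ in the direction of the gene. Capitals mark matches to a motif on either strand. The GC box, a site bound by SP factors, was searched as GGGCGG and reads CCGCCC where it lies on the opposite strand. The CCAAT box, bound by the factor NF-Y, reads ATTGG on the opposite strand. The motif of ETS factors was searched as CCGGAAG, and the cAMP response element, bound by CREB, as TGACGTCA. In Ccnt2 an inverted CCAAT box and a GC box overlap and form a single run of capitals.
Cdk9: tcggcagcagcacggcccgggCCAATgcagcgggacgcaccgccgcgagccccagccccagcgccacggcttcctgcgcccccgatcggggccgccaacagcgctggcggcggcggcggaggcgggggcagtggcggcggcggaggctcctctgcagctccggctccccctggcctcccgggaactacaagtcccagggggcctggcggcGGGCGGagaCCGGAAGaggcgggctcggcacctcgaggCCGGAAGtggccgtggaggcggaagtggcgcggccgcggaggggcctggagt
Ccnt1: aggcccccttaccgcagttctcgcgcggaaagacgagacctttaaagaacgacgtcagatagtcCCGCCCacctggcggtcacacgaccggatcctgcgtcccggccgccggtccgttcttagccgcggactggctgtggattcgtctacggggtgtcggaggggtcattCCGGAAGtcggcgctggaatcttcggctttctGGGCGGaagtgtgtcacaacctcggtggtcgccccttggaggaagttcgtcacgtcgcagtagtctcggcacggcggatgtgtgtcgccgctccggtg
Ccnt2: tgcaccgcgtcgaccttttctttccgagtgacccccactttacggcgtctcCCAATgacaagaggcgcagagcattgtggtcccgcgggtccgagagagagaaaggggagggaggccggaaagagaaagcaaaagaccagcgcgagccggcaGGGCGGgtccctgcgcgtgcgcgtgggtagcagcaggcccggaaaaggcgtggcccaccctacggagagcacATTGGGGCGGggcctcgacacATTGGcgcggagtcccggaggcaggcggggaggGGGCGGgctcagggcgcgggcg
Ell2: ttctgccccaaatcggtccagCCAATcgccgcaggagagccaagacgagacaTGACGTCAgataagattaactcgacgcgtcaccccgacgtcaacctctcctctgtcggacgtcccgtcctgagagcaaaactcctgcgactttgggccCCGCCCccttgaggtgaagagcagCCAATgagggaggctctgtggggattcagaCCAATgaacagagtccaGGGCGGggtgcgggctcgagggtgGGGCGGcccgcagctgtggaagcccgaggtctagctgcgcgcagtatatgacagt
Paf1: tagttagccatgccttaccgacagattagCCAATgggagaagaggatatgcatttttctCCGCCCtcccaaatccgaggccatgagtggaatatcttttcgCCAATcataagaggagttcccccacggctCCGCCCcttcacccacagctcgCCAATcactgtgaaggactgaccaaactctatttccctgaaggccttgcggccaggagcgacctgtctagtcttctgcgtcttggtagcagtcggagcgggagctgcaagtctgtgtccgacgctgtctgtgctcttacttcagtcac
They lie at chr2:32712735-32713034 (minus strand) for Cdk9, chr15:98567687-98567986 (minus strand) for Ccnt1, chr1:127773914-127774213 (plus strand) for Ccnt2, chr13:75707234-75707533 (plus strand) for Ell2 and chr7:28392746-28393045 (plus strand) for Paf1.

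RefSeq promoters were matched for 9 of the 10 members, all but Ctr9. A GC box was found in 9 of 9 windows, against 35.7% of all 32851 promoter windows of this length. A CCAAT box was found in 4 of 9 windows (Cdk9, Ccnt2, Ell2 and Paf1), against 37.4% of all. The ETS motif was found in 3 of 9 (Cdk9, Ccnt1 and Rtf1), against 8.86%. A cAMP response element was in the window of Ell2 alone (1.79% of all promoters), the YY1 motif AAGATGGC in that of Ell alone (2.75%) and the NRF1 motif GCATGCGC in that of Rtf1 alone (2.71%). The TATA box TATAAA and the E-box CACGTG were in 0 of 9 windows, against 13.6% and 7.15% of all promoters. The ratio of observed to expected CpG dinucleotides ran from 0.648 in Paf1 to 1.22 in Ccnt1, against a median of 0.384 over all promoters. These are CpG-rich promoters without a TATA box in this window, and the matches are letters only. The motif shares take in promoters of all kinds, and the 9 windows were not set against promoters of like CpG content.

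The H3K79me2 and H3K79me3 peak lists covered the members unevenly. Marked genes are those with at least 1 bp of the body under a peak in each WT list, and coverage is the percentage of the body that lies under peaks, given for WT library 1 and then 2. H3K79me2 marked 9 of the 10 members, against 44.4% of 18555 tested genes with a position. All 3 P-TEFb genes carried H3K79me3 as well, against 11.2% of those genes, while 0 of 2 ELL and 0 of 5 PAF genes were marked by H3K79me3 in both lists. The H3K79me3 lists differed in size, with 19800 peaks in WT list 1 and 7338 in WT list 2. Ell and Cdc73 had H3K79me3 peaks in list 1 alone, so the contrast between the groups rests on the shorter list. Of the 15 H3K79me3 peaks over members in the WT lists, 12 were over P-TEFb genes, and all 15 overlapped an H3K79me2 peak of the same replicate. The share of all H3K79me3 peaks with such an overlap is not given here, so the overlap is not a trait of the members. The H3K79me3 count depended on the threshold: it was 5 in the list of WT library 1 alone, 1 where at least 10% of the body had to be covered, and 0 among peaks with a −log10 q of at least 5 in both lists. In the 4 KO lists 0 peaks overlapped a member. These lists held only 16 and 12 H3K79me2 peaks and 178 and 328 H3K79me3 peaks over all chromosomes. With so few peaks, 0 over 10 genes says little about the members. Marked genes were more frequent at higher RNA level: with genes cut into 5 equal classes by WT level, 94.3% of the highest class were marked by H3K79me2 and 35.8% by H3K79me3, and 78.5% and 8.95% of the next class. Ell and Paf1 were in the next class and the other 8 members in the highest, so the members' H3K79me2 count is near that of genes of like level. Of these 8, 3 were marked by H3K79me3, which is also near the 35.8% of that class. No count stands behind a peak in these lists, so the depth of the ChIP libraries is unknown, and the enrichment values below are the authors' fold over background for single peaks.

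Cdk9 encodes the kinase of P-TEFb and lies at chr2:32705782-32712784 on the minus strand. H3K79me2 peaks covered 82.0% and 76.3% of its 7.0 kb, beginning 0.1 and 0.12 kb after the start site. Its highest-scoring H3K79me2 peaks had an enrichment of 10.2 and 7.44. H3K79me3 peaks covered 16.2% and 11.1% of the body, all within 1.55 kb of the start site. The H3K79me3 peak in library 2 was weak, with an enrichment of 2.56 and a −log10 q of 1.99. The Cdk9 body was thus nearly filled by H3K79me2, with H3K79me3 held to its first part.

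Ccnt1 encodes cyclin T1, the main partner of CDK9 in many cells, and lies at chr15:98538690-98567736 on the minus strand. H3K79me2 covered 59.2% and 53.0% of its 29.0 kb. The first peak ran without a break from 0.27 to 7.59 kb after the start site in library 1 and from 0.28 to 7.52 kb in library 2. Shorter peaks lay along the rest of the gene as far as its end in both libraries, as the plot of peaks by distance shows. H3K79me3 covered 3.19% and 1.09%, between 0.36 and 1.71 kb after the start. Ccnt2, which encodes the alternative cyclin T2, lies at chr1:127774164-127804837 on the plus strand. A single H3K79me2 peak of 19514 bp in library 1 and 17579 bp in library 2 filled its 5′ part, and peaks together covered 76.6% and 70.0% of its 30.7 kb. H3K79me3 covered 8.3% and 5.81%, in 4 peaks and 2 peaks.

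**Figure D1:**
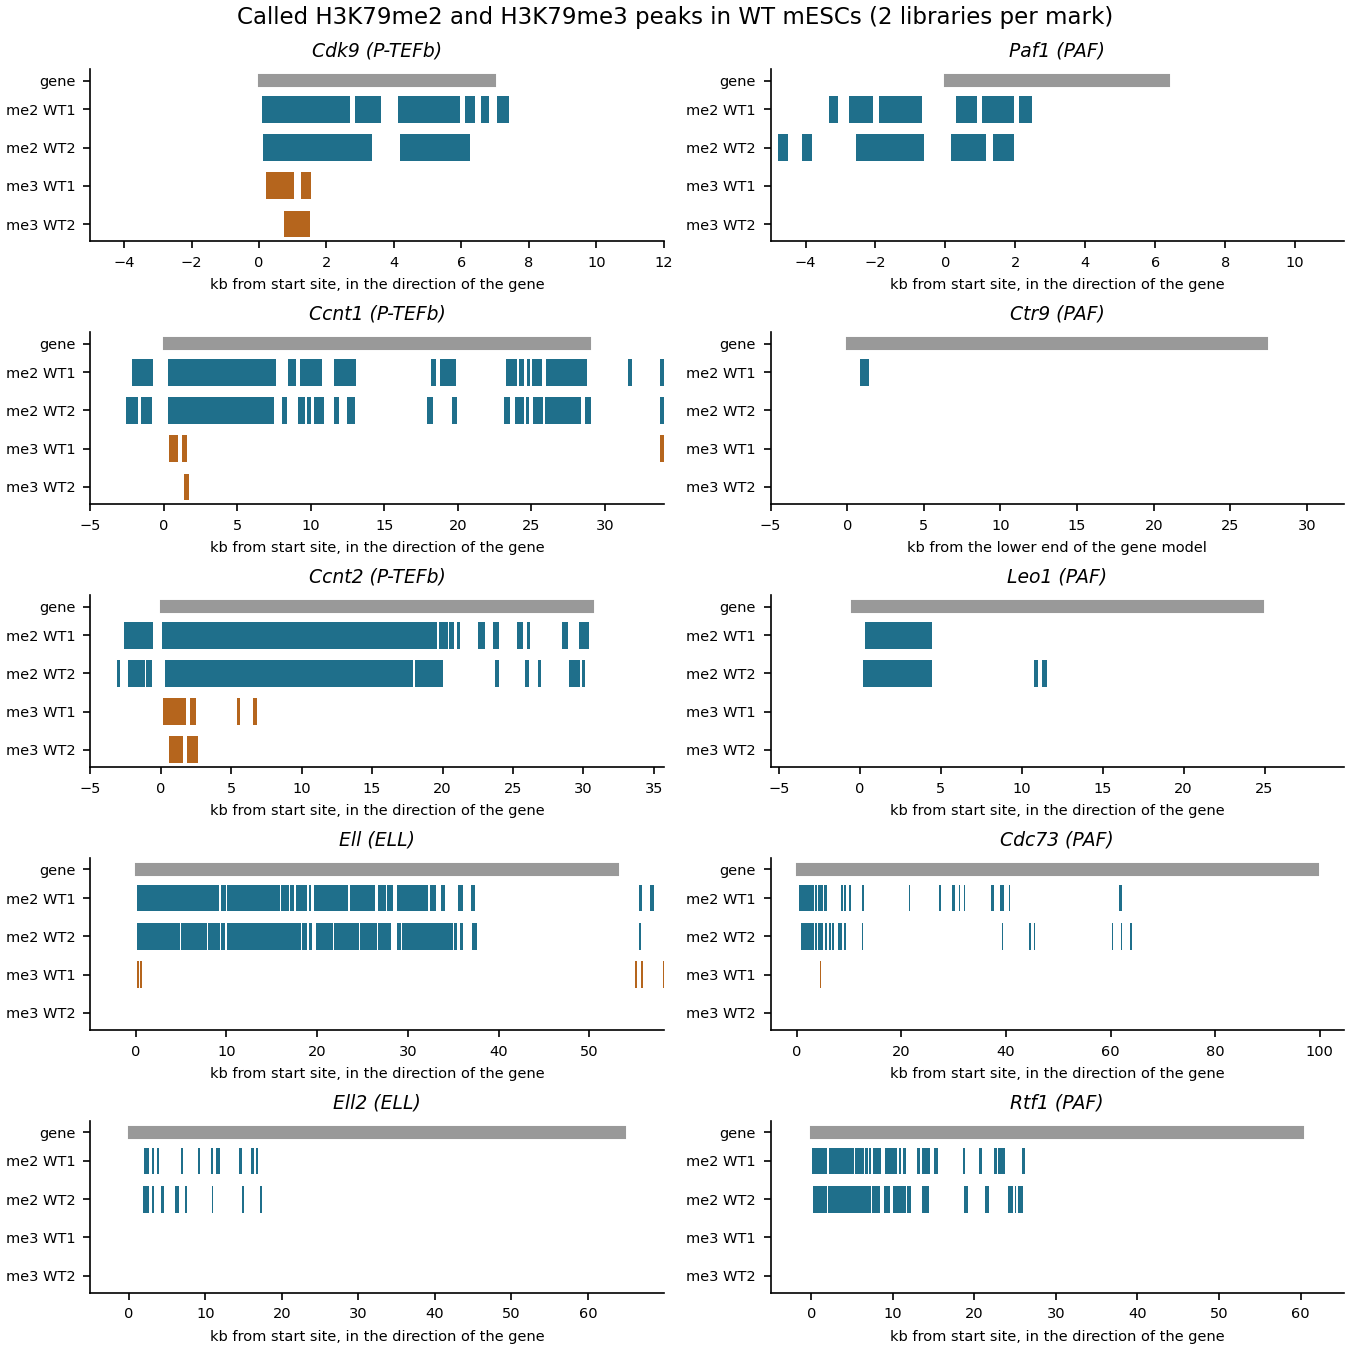
Peaks of H3K79me2 (blue) and H3K79me3 (brown) over each member in the 2 WT mESC libraries, plotted against distance from the start site in kb (Ctr9: from the lower end of the gene model), with the gene body in grey. H3K79me2 peaks fill more than 50% of the P-TEFb genes and Ell, Ell2 holds short scattered peaks, and Ctr9 holds 1 peak in library 1 and 0 in library 2.

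The 2 ELL genes differed in coverage. Ell encodes the founding member of the family and lies at chr8:70539675-70592858 on the plus strand. H3K79me2 peaks covered 59.9% and 62.8% of its 53.2 kb and reached 37.42 and 37.61 kb into the gene. H3K79me3 was listed over Ell in library 1 alone, in 2 peaks that covered 0.904% of the body. Ell2, at chr13:75707484-75772361 on the plus strand, encodes a paralog best known for its part in immunoglobulin secretion of plasma cells. H3K79me2 covered 5.43% and 4.5% of its 64.9 kb, in 10 and 8 peaks of 230 to 731 bp. The first covered base of Ell2 lay 1.97 and 1.87 kb after the start site, whereas in the other 8 members with a start site it lay within 0.84 kb in both libraries.

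Among PAF genes coverage was lower than in P-TEFb genes. Paf1 encodes the subunit that names the complex, and 29.9% and 25% of its 6.39 kb at chr7:28392996-28399383 on the plus strand were covered by H3K79me2. Leo1, at chr9:75441015-75466432 on the plus strand, had 16.2% and 19.2% coverage, nearly all of it in a single peak of 4109 and 4302 bp close to the start. Rtf1, whose protein promotes H2B ubiquitination, lies at chr2:119675068-119735407 on the plus strand and had 22.7% and 23.1%. Cdc73 encodes parafibromin, a tumour suppressor, and lies at chr1:143603276-143702893 on the minus strand, where H3K79me2 covered 10.3% and 8.02% of 99.6 kb. H3K79me3 was listed over Cdc73 in library 1 alone, in 1 peak with an enrichment of 5.24 and a −log10 q of 8.46. Ctr9, the scaffold subunit, lies at chr7:111028951-111056377, and a single peak of 579 bp covered 2.11% of it in library 1, against 0 in library 2. Ctr9 was therefore the member not counted as marked, and its only peak had an enrichment of 3.48.

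Coverage falls with gene length, so each member was set among H3K79me2-marked genes of the highest expression class, within 1 of 5 equal classes of length. Ccnt2 lay at percentile 96.0 of those genes, Ell at 89.6, Cdk9 at 88.2 and Ccnt1 at 86.1. Paf1 lay at percentile 15.5, Ell2 at 19.9, Leo1 at 22.3, Cdc73 at 31.7 and Rtf1 at 45.1. The 3 P-TEFb genes and Ell were thus covered more than most highly expressed genes of their length, and Ell2 and the 4 marked PAF genes less than the median. For Ell and Paf1, which are of the next expression class, this comparison is with genes of higher level. No test was made of these positions.

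**Figure D2:**
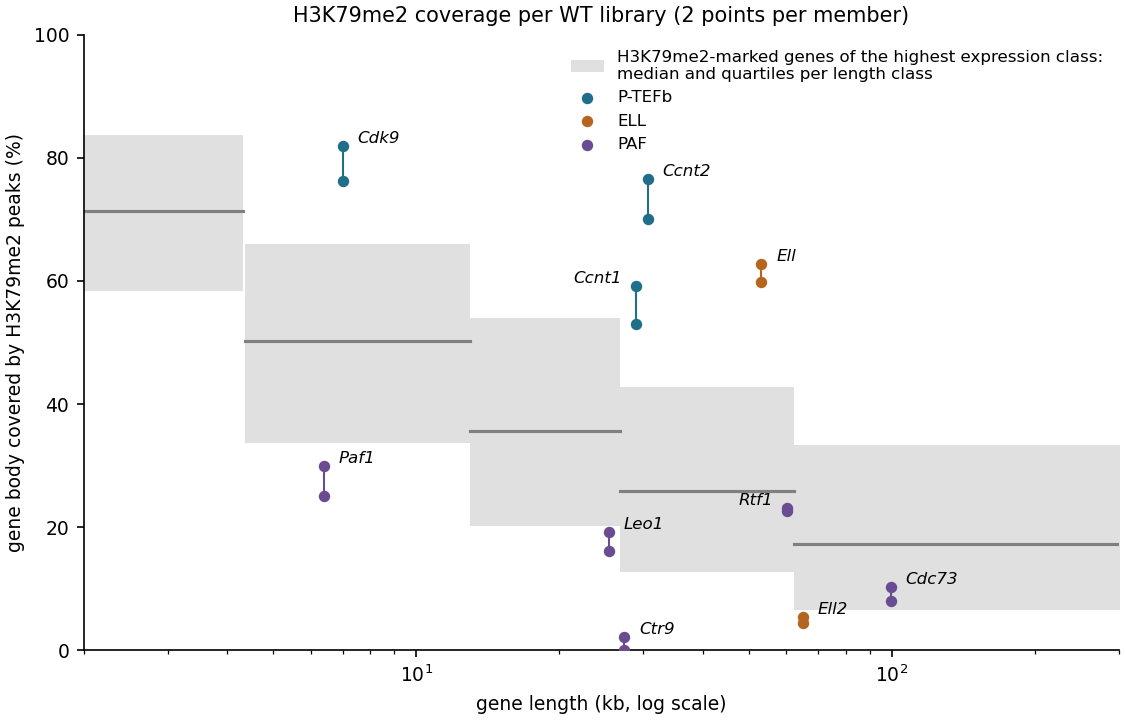
Percentage of each member's body covered by H3K79me2 peaks against gene length in kb (log scale), with 1 point per WT library joined by a line. Grey bands and lines are the quartiles and medians of H3K79me2-marked genes of the highest expression class per length class; the P-TEFb genes and Ell lie above their band, and Paf1, Leo1, Ell2 and Ctr9 below theirs.

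Peaks began after the promoters. In the 9 promoter windows, of which 5 are printed above, 0 bases were covered by a peak of either mark in either WT library. Among 6556 H3K79me2-marked genes with a promoter window, 3.33% had a window touched by an H3K79me2 peak in both WT lists and 7.61% in either list, so an uncovered window is the usual state. Upstream of Ccnt1, Ccnt2 and Paf1, separate H3K79me2 peaks lay on the other side of the window in both libraries.

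RNA was then compared between Dot1L KO and WT mESCs, which addresses how levels of these factors change when the enzyme is lost. Library totals were 26860527 to 33755064 estimated counts in mESCs and 24950199 to 32479590 counts in embryos. Dot1l itself was at 104.3, 96.9 and 99.2 CPM (TMM-scaled counts, relative to a common library total) in the WT libraries and 81.4 and 71.5 CPM in the KO libraries. This is a gene-level count, and how the knockout was made is not given, so the count does not check the knockout. The KO lists held 16 and 12 H3K79me2 peaks, against 66834 and 64084 in the WT lists. The summed level of 5 pluripotency markers was 2395 to 2429 CPM in WT and 1860 to 1968 CPM in KO mESCs. That of 7 primitive endoderm markers was 18.7 to 19.98 and 33.7 to 35.6 CPM, and that of 7 fibroblast markers, led by Col1a1, was 153 to 195 and 195 to 243 CPM. Each pluripotency marker was lower in both KO libraries than in every WT library, narrowly so for Sox2 (394.2 CPM in KO library 2, 394.3 in WT library 3). The endoderm and fibroblast lists did not move as wholes. Gata6, Sox17, Pdgfra and Dab2 were higher in both KO libraries, Gata4 and Foxa2 overlapped, and Sox7 was lower. Of the fibroblast markers, Col1a1, Thy1 and Postn were higher in both KO libraries, and Col1a2, Col3a1, Dcn and Lum overlapped. The part of these shifts in the members' results was not tested, and in bulk RNA fewer cells of a type and less RNA per cell cannot be told apart.

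Of the 10 members, 3 rose (Paf1, Ccnt2 and Ctr9), 1 fell (Ell2) and 6 did not pass the test in KO mESCs, by edgeR's quasi-likelihood test at a Benjamini-Hochberg adjusted p under 0.05 over 19532 genes. That is 4 of 10 called, beside 43.9% of all tested genes (22.3% higher and 21.6% lower), so the share called was close to that of genes in general. With upper-quartile scaling 5503 of all genes were higher and 3168 lower, against 4351 and 4221 here. CPM values did not overlap between the groups for 6 of 10 members, beside 62.5% of all tested genes. The changes were small: the median absolute log2 fold change was 0.09 in the members and 0.24 over all tested genes. At a threshold test against a log2 fold change of 0.5, 0 of the 10 were called.

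**Figure D3:**
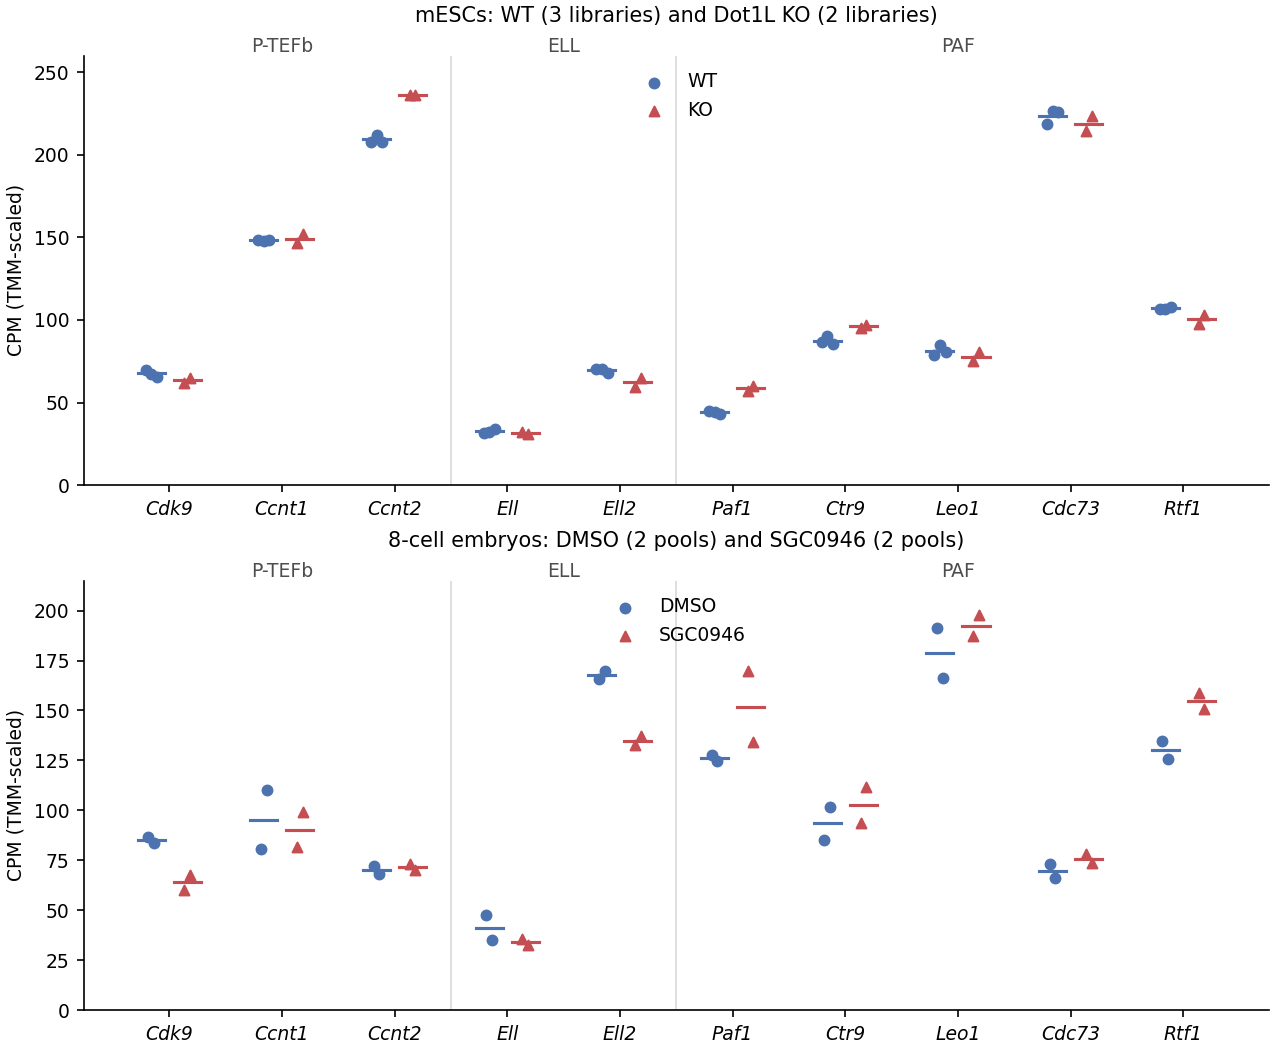
Level of each member in CPM (TMM-scaled counts relative to a common library total, linear axis from 0) in every library, with WT or DMSO as blue circles, KO or SGC0946 as red triangles and a bar at the group mean. In mESCs the KO points of Paf1 and Ccnt2 lie above all WT points, and in embryos the SGC0946 points of Cdk9 and Ell2 lie below both DMSO points; levels of different genes are not corrected for length.

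Among P-TEFb genes, Ccnt2 was called higher in KO mESCs. It was at 207.7, 212.0 and 207.9 CPM in WT and 236.1 and 236.4 CPM in KO, with the KO libraries above every WT library. Its log2 fold change was 0.18 ± 0.04 (SE; 95% interval 0.09 to 0.26), with an edgeR adjusted p of 0.00224. Cdk9, the kinase, was at 70.0, 67.5 and 65.8 CPM in WT and 62.1 and 64.6 CPM in KO. The KO values of Cdk9 lay below those of WT, but the difference did not pass the test (log2 fold change −0.10, 95% interval −0.20 to 0.01, edgeR adjusted p = 0.131). Ccnt1 was at 148.5, 148.1 and 148.7 CPM in WT and 146.4 and 151.9 CPM in KO. The KO libraries of Ccnt1 lay on both sides of WT, and the interval of its log2 fold change ran from −0.08 to 0.10. Within libraries, Ccnt2 took 48.7 to 49.6% of the summed P-TEFb CPM in WT and 52.2 to 53.1% in KO. Such a share needs no scaling between libraries, and it is not corrected for gene length.

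Both ELL genes had log2 fold changes below 0, and 1 was called. Ell2 was at 70.3, 70.4 and 67.8 CPM in WT and 59.7 and 64.8 CPM in KO. The KO values lay below all WT values, with a log2 fold change of −0.16 ± 0.05 (SE; 95% interval −0.27 to −0.05) and an edgeR adjusted p of 0.0223. Beside the threshold test at 0.5, which called none of the members, this call was lost in 4 of 13 other alternatives: with upper-quartile scaling (log2 fold change −0.09, edgeR adjusted p = 0.153) and without WT library 1, WT library 2 or KO library 1 (adjusted p = 0.0786, 0.073 and 0.151). Ell was at 31.5, 32.0 and 34.01 CPM in WT and 32.2 and 30.9 CPM in KO, and the groups overlapped. Its log2 fold change of −0.04 had a 95% interval of −0.17 to 0.08, and turned to 0.02 with upper-quartile scaling.

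Of the 5 PAF genes 2 rose, 0 fell and 3 did not pass the test. Paf1 was at 45.1, 44.2 and 43.3 CPM in WT and 57.3 and 60.0 CPM in KO mESCs. Every KO library lay above every WT library, with a log2 fold change of 0.41 ± 0.05 (SE; 95% interval 0.30 to 0.51), a rise of 32.6%, and an edgeR adjusted p of 2.01e-05. Ctr9 was at 86.8, 90.2 and 85.6 CPM in WT and 95.4 and 96.9 CPM in KO. The groups did not overlap. Ctr9 rose by a log2 fold change of 0.14 ± 0.05 (SE), and its adjusted p by edgeR was 0.0283. The Ctr9 call was lost in 5 of these 13 alternatives: with the replicate number as a block (adjusted p = 0.0774), with DESeq2 (0.0898) and without WT library 1, WT library 3 or KO library 2 (0.0847, 0.116 and 0.0702). Paf1 and Ccnt2 were called in all 13, but not in the threshold test at 0.5 (edgeR adjusted p = 1 for both).

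Rtf1 was at 106.4, 106.8 and 108.0 CPM in WT and 97.7 and 102.9 CPM in KO, with groups that did not overlap and a log2 fold change of −0.09 (95% interval −0.19 to 0.00, edgeR adjusted p = 0.11). It was called lower without KO library 2 (log2 fold change −0.13, adjusted p = 0.0316). Leo1 was at 78.6, 84.7 and 80.3 CPM in WT and 74.9 and 80.5 CPM in KO, with overlapping groups and a 95% interval of −0.18 to 0.05. Cdc73 was at 218.5, 226.7 and 225.6 CPM in WT and 214.5 and 223.3 CPM in KO, with overlapping groups and a 95% interval of −0.12 to 0.06. Reads over B3galt2 (925 to 1229 counts per library), a gene model that shares 9241 bp with that of Cdc73, and over the pseudogene Gm6397 could be split between the genes in either direction, so the value of Cdc73 is less certain.

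Within libraries, Paf1 took 7.98 to 8.43% of the summed CPM of the 5 PAF genes in WT and 10.6 to 10.7% in KO mESCs. Ctr9 took 15.8 to 16.3% and 17.2 to 17.7%. Rtf1 took 19.3 to 19.9% and 18.1 to 18.3%, Leo1 14.7 to 15.3% and 13.9 to 14.3%, and Cdc73 40.8 to 41.6% and 39.6 to 39.7%. The 5 shares add up to the whole, so those of Rtf1, Leo1 and Cdc73 are lowered by the rise of Paf1 and Ctr9 and do not show a fall of their own. With 3 libraries against 2, these shares are given as values without a test.

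Coverage by H3K79me2 and RNA change can be set side by side for the members. The 4 members with more than 50% of the body covered in both WT libraries, Ccnt2, Cdk9, Ell and Ccnt1, had log2 fold changes of 0.18, −0.10, −0.04 and 0.01. Ctr9, with the lowest coverage, had 0.14, and Ell2, with the next lowest, −0.16. Paf1, with the largest RNA difference, was at 29.9% and 25% coverage. Of these 4 well-covered members only Ccnt2 passed the test.

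The genes most like Paf1 in pattern were taken, by the rule for named genes, among 10025 genes whose mean level reached 10 CPM, as the smallest distance between log2 levels over the 5 mESC libraries after centring. They were Lta4h, which encodes a leukotriene hydrolase (distance 0.01), Zfp740, which encodes a zinc finger protein (0.03), and Khdrbs1, which encodes the RNA-binding protein SAM68 (0.03). Their log2 fold changes were 0.40, 0.39 and 0.43. The 5 libraries fall into 2 groups, so closeness rests mainly on a KO difference of like size.

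**Figure D4:**
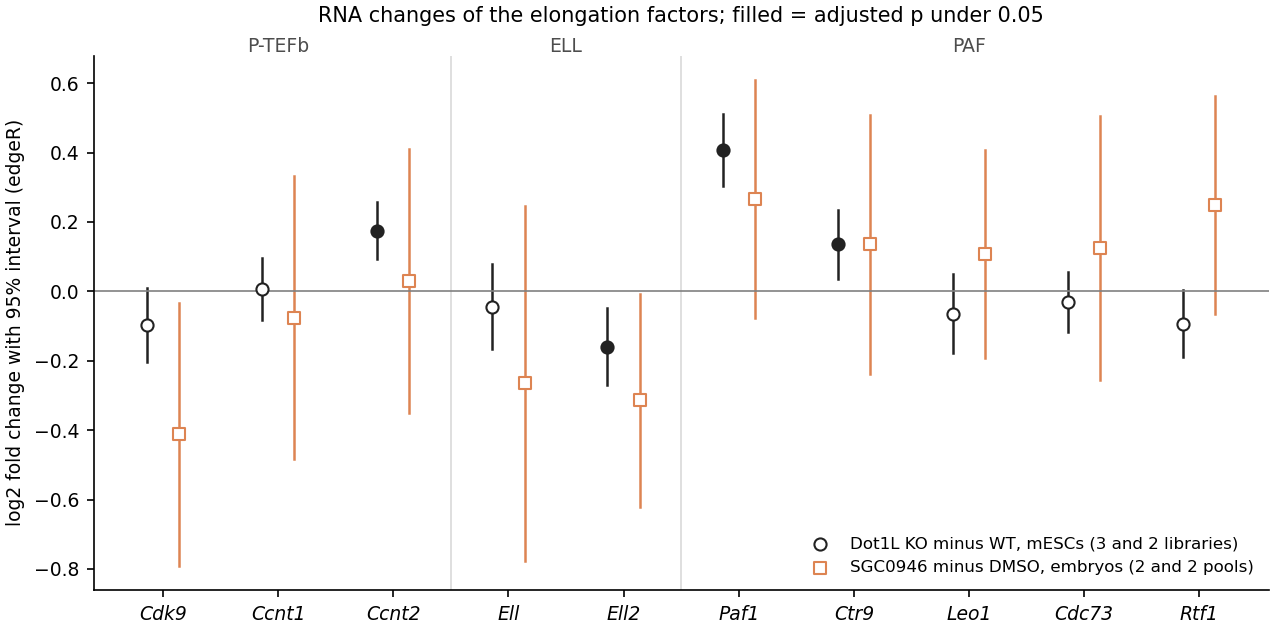
Log2 fold change of each member with its 95% interval, for Dot1L KO minus WT mESCs (black circles) and SGC0946 minus DMSO embryos (orange squares); filled symbols passed an edgeR adjusted p under 0.05. In mESCs 4 members are filled, Paf1 at 0.41 being the farthest from 0, and in embryos 0 are filled and the intervals are wider.

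The embryo comparison asks how the same genes respond to inhibition of the enzyme at the 8-cell stage. By edgeR's quasi-likelihood test 0 of 10 members were called, and 0% of the 14351 tested genes were. Unadjusted p-values were under 0.05 for 2 members (Cdk9 and Ell2) and for 1169 genes in all. DESeq2 called 125 genes and limma-voom 55, with 0 members among either. CPM values did not overlap between the groups for 5 of 10 members, beside 39.2% of all tested genes. Standard errors of the members ran from 0.14 to 0.24 in embryos, against 0.04 to 0.06 in mESCs, and the 95% intervals were wider accordingly. The summed level of 5 pluripotency markers was 1091 to 1102 CPM with DMSO and 701 to 831 CPM with SGC0946, and that of 5 preimplantation markers 2578 to 2650 and 1876 to 2310 CPM. Pou5f1, at 699.8 and 716.4 CPM with DMSO and 458.2 and 547.5 CPM with SGC0946, is in both lists, so the 2 sums are not separate. Sox2, Tfap2c and Cdx2 overlapped between the groups, and the other genes of these lists were lower in both SGC0946 pools. The part of these shifts in the members' values was not tested. Markers of fibroblasts and of cumulus or granulosa cells summed to at most 2.86 CPM, and Col3a1, Dcn, Lum, Fshr and Ptx3 were at 0 in all 4 pools. Dot1l was at 277.8 and 255.8 CPM with DMSO and 221.4 and 214.1 CPM with SGC0946 (edgeR adjusted p = 0.582).

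Among P-TEFb genes in embryos, Cdk9 was at 86.5 and 83.8 CPM with DMSO and 60.1 and 67.8 CPM with SGC0946. Both treated pools lay below both control pools, with a log2 fold change of −0.41 ± 0.18 (SE; 95% interval −0.79 to −0.03), an unadjusted p of 0.035 and an edgeR adjusted p of 0.571. The log2 fold change of Cdk9 lay between −0.50 and −0.32 over 12 alternatives other than the threshold test, and was called in 0. Ccnt1 was at 80.7 and 110.0 CPM with DMSO and 81.8 and 99.0 CPM with SGC0946, with treated pools inside the range of the controls. Ccnt2 was at 72.2 and 68.3 CPM and 73.0 and 70.4 CPM, and the groups overlapped. Log2 fold changes of the cyclins were −0.08 (95% interval −0.48 to 0.33) and 0.03 (−0.35 to 0.41).

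Both ELL genes again had values below 0. Ell2 was at 165.9 and 169.6 CPM with DMSO and 132.8 and 137.0 CPM with SGC0946, without overlap. Its log2 fold change was −0.31 ± 0.14 (SE; 95% interval −0.62 to −0.01), with an unadjusted p of 0.0451 and an edgeR adjusted p of 0.60. Ell was at 47.6 and 34.9 CPM with DMSO and 35.8 and 32.9 CPM with SGC0946, so the groups overlapped, and its log2 fold change was −0.27 (95% interval −0.78 to 0.25).

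All 5 PAF genes had log2 fold changes above 0 in embryos, from 0.11 to 0.27, and 0 of 5 passed the test. Paf1 was at 127.8 and 124.8 CPM with DMSO and 169.8 and 134.1 CPM with SGC0946. Both treated pools of Paf1 lay above the controls but were far apart from each other, and the log2 fold change was 0.27 (95% interval −0.08 to 0.61, edgeR adjusted p = 0.736). Rtf1 was at 134.6 and 125.7 CPM with DMSO and 158.7 and 150.5 CPM with SGC0946, without overlap (log2 fold change 0.25, 95% interval −0.07 to 0.56, edgeR adjusted p = 0.731). Cdc73 was at 73.2 and 66.0 CPM and 78.2 and 73.6 CPM, also without overlap. The groups of Ctr9 (85.2 and 101.7 CPM, then 93.6 and 111.7 CPM) and Leo1 (191.2 and 166.2 CPM, then 187.3 and 197.5 CPM) overlapped.

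Set beside each other, the mESC and embryo comparisons gave log2 fold changes of the same sign for 6 of 10 members, 3 above 0 (Ccnt2, Paf1 and Ctr9) and 3 below 0 (Cdk9, Ell and Ell2). The 4 members called in mESCs were among these 6. The share of all tested genes with like sign in both comparisons is not given here, so these counts have no background. Leo1, Cdc73, Rtf1 and Ccnt1 had opposite signs, and their embryo intervals held 0, as did those of Ccnt2, Ell, Paf1 and Ctr9 among the members of like sign. The comparisons share no libraries, were made on separate tables, and the difference between them was not tested.

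Other genes of the elongation machinery gave a background for the members. The list held 39 symbols, with Wdr61 also under its other symbol Skic8, and 38 were tested in mESCs. In KO mESCs 8 rose and 13 fell, which is 21 of 38, beside 43.9% of all tested genes. The balance of direction was not stable: 15 were higher and 9 lower with upper-quartile scaling, and 10 were higher and 9 lower without KO library 1. Among scaffolds and readers of the super elongation complex, which tether P-TEFb and ELL, 2 of 5 rose and 2 fell. Aff4, the AFF scaffold, was at 683.9, 692.8 and 684.2 CPM in WT and 471.3 and 504.5 CPM in KO (log2 fold change −0.49 ± 0.04 SE, edgeR adjusted p = 4.98e-07). Aff3, a related scaffold, was at 3.73, 5.60 and 2.65 CPM in WT and 11.9 and 14.7 CPM in KO, a rise of 1.72 ± 0.20 (SE) on the log2 scale. Of the 4 genes of the 7SK particle, which holds P-TEFb inactive, 0 rose and 2 fell. These were Larp7, which binds 7SK RNA, at 83.9, 88.7 and 86.1 CPM in WT and 50.4 and 57.3 CPM in KO (log2 fold change −0.68 ± 0.06 SE), and Hexim1, the P-TEFb inhibitor, at −0.20 ± 0.06 (SE).

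Of the 6 partners of ELL, 2 rose and 2 fell. Ell3, the third ELL paralog, was at 11.8, 11.2 and 11.3 CPM in WT and 18.1 and 16.7 CPM in KO, a log2 fold change of 0.60 ± 0.08 (SE) against −0.04 and −0.16 for Ell and Ell2. Ice2, a subunit of the little elongation complex that serves small nuclear RNA genes, had a log2 fold change of 0.51 ± 0.06 (SE). Of the 6 pausing factors 2 rose, Supt5 (0.13) and Nelfb (0.26), and 0 fell. Among 6 PAF partners and H2B ubiquitination genes 1 rose and 2 fell. The riser was Wdr61, which encodes a subunit shared by PAF and the SKI complex, with a log2 fold change of 0.30 ± 0.05 (SE). Ube2a, an X-linked gene for the E2 enzyme of H2B ubiquitination, was at 81.5, 81.8 and 80.9 CPM in WT and 36.6 and 37.8 CPM in KO (log2 fold change −1.13 ± 0.05 SE, edgeR adjusted p = 2.05e-09), while its autosomal paralog Ube2b had 0.10 and was not called. Of 11 other elongation factors and kinases of the polymerase tail 1 rose, Polr2a (0.31), and 5 fell. Hexim1, Supt5, Nelfb, Wdr61, Ube2b and Polr2a were singled out from these lists after their values were seen.

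**Figure D5:**
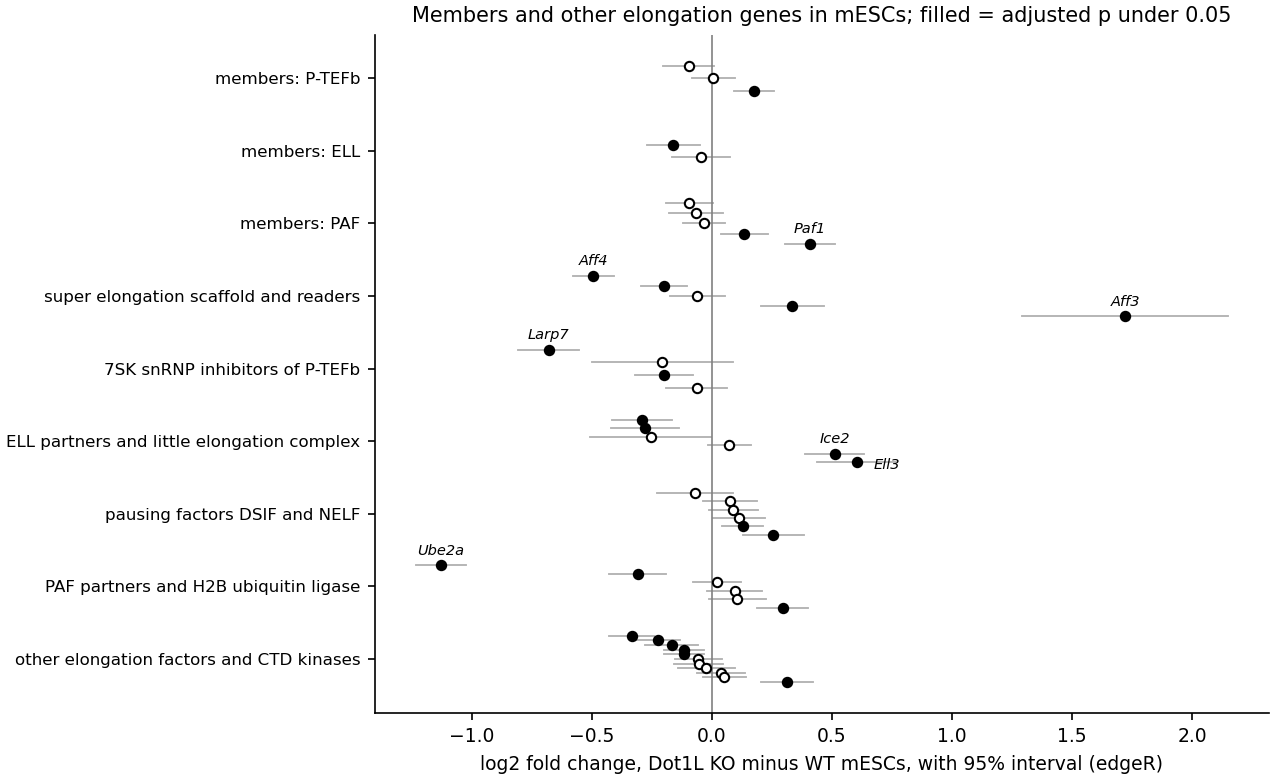
Log2 fold change in Dot1L KO minus WT mESCs, with 95% intervals, of the 10 members and 38 other elongation genes grouped by role; filled points passed an edgeR adjusted p under 0.05. The members lie between −0.16 and 0.41, and the other genes reach from −1.13 (Ube2a) to 1.72 (Aff3).

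In embryos 0 of 36 tested genes of this list were called by edgeR. The lowest p-values belonged to Rnf40, a subunit of the H2B ubiquitin ligase (log2 fold change −0.48 ± 0.14 SE, adjusted p = 0.376), Cdk13, a kinase of the polymerase tail (0.68 ± 0.25 SE, adjusted p = 0.456), and Ell3 (−0.70 ± 0.27 SE, adjusted p = 0.508). Rnf40 was called lower by DESeq2 (adjusted p = 0.0461). Aff4, which fell in KO mESCs, was at 168.9 and 157.1 CPM with DMSO and 192.4 and 186.8 CPM with SGC0946. Larp7 was at 91.1 and 103.0 CPM and 90.1 and 101.5 CPM, and the groups overlapped. H3K79me2 marked 34 of the 38 genes and H3K79me3 marked 10 of 38, beside 44.4% and 11.2% of all tested genes with a position. Those shares take in genes of all levels. In the highest expression class they were 94.3% and 35.8%, and in the next class 78.5% and 8.95%. The 38 genes were not set against genes of like level. The counts for the members were 9 of 10 and 3 of 10.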

How the data were processed

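RNA and peak files of mouse embryonic stem cells and RNA of 8-cell embryos were used as deposited; input libraries were not used here. The deposited mESC table holds estimated counts per Ensembl gene, made by the authors, with kallisto named for its 5 libraries in the submitters' processing notes, which also name STAR and HTSeq for 4 of them without a role. These were rounded before the fits. The deposited embryo table holds whole read counts per gene symbol, with STAR and HTSeq named in the same notes. Rows without a symbol numbered 69 in mESCs and held at most 0.0163% of counts. The peak lists were made by the authors per library; Bowtie2, MACS2 and mm10 are named in the submitters' processing notes. In the deposited lists each peak has a fold enrichment (ratio), a −log10 q and a score of 10 times that −log10 q. Versions, thresholds, peak controls, annotation, strand setting and use of molecular identifiers are not given in the sources used here. Without a stated strand setting, reads of overlapping genes on opposite strands cannot be told apart.

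Each RNA table was fitted alone with edgeR 4.0.16 in R 4.3.3 (filterByExpr, TMM scaling, quasi-likelihood F test, no covariates), with Benjamini-Hochberg adjustment over all tested genes and calls at 0.05. Standard errors and 95% intervals come from the same fit. Scripts were tested on simulated data. Peaks were placed on gene bodies and promoters of RefSeq GRCm38.p6, and all 10 members matched, with Python 3.11.15, pandas 2.3.3 and numpy 2.4.6; plots used matplotlib 3.10.9. All members are named, with the genes of the other elongation lists that passed the test and had the largest changes in mESCs, or the 3 lowest p-values in embryos. Members and lists were chosen with earlier results of these data known. Alternatives were DESeq2 size factors, upper-quartile scaling, autosomal genes only, DESeq2 1.42.0, limma-voom (limma 3.58.1), no filter, a minimum of 10 counts in all libraries, a replicate block, leaving out each library, and a threshold test at a log2 fold change of 0.5; for peaks, single lists, a −log10 q of at least 5, at least 10% of the body covered and bodies extended by 2 kb.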

Additional observations from a re-analysis of the deposited data

How the results depend on the processing

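Of the 10 members, 0 were called in KO mESCs by the test against a log2 fold change of 0.5, and 3 of the other elongation genes were. Leaving out 1 mESC library gave 2 to 4 called members, the lowest without WT library 1. Upper-quartile scaling, which moved the median of all mESC genes by 0.07 and called 5503 genes higher and 3168 lower (other elongation genes: 15 and 9, against 8 and 13), turned the log2 fold changes of Ell, Leo1 and Cdc73 to 0.0224, 0.0031 and 0.0363. Ccnt1 turned to −0.0075 on autosomal genes, −0.0035 without a filter and −0.0016 with DESeq2. Without single libraries, Ccnt1 ran from −0.023 to 0.0326 in mESCs. In embryos, log2 fold changes without single pools ran from −0.28 to 0.17 for Ccnt1 and from −0.0087 to 0.0677 for Ccnt2. With DESeq2, 1 other elongation gene was called in embryos (Rnf40), and 0 to 1 without single pools (Ell3, without SGC0946 pool 2). H3K79me3 marked 5 members in WT list 1 alone, 1 at 10% coverage and 0 at a −log10 q of at least 5. Deviations of same-numbered samples from their group means correlated across genes at 0.0068 and −0.03 in mESCs and 0.05 in embryos. In a group of 2 the deviations mirror each other, so these values cannot settle whether same-numbered samples share a batch. With the replicate block 3 members were called in mESCs and 0 in embryos, where the block raised the calls over all genes from 0 to 171. Leaving out a KO library or an embryo pool leaves 1 sample in that group, which is assumed to vary like the others. The 2 or 3 libraries per group limit all calls.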

Other observations

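The balance of counts within the complexes differed between untreated mESCs and control embryos, and it needs no scaling between libraries. Cdc73, which encodes parafibromin, had 4.84, 5.12 and 5.21 times the CPM of Paf1 in WT mESCs, but 0.573 and 0.529 times that of Paf1 in the DMSO embryo pools. Rtf1 had 2.36, 2.41 and 2.49 times the CPM of Paf1 in WT mESCs, and 1.05 and 1.01 times in DMSO embryos. For P-TEFb, Ccnt2 had 2.97, 3.14 and 3.16 times the CPM of Cdk9 in WT mESCs, against 0.834 and 0.816 times in DMSO embryos. Ell2 had 2.23, 2.20 and 1.995 times the CPM of Ell in WT mESCs, and 3.49 and 4.86 times in DMSO embryos. The tables were made from other strains, with other library kits and other counting tools, and normalized separately, which cannot be told apart from the stage. The ratios are not corrected for gene length. The value of Cdc73 is also less certain, because its gene model shares 9241 bp with that of B3galt2.

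With loss or inhibition of Dot1L, the ratio of Cdc73 to Paf1 was 3.74 and 3.72 in KO mESCs, below all WT libraries, and 0.461 and 0.549 in SGC0946 embryos, which overlapped the control pools. The ratio of Ccnt2 to Cdk9 was 3.81 and 3.66 in KO mESCs and 1.21 and 1.04 in SGC0946 embryos, above every control library in both tables. These ratios were picked after the values were seen and are given without a test.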
